A study of Mus musculus with 28 samples.

Results

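9 genes that senescent or stressed fibroblasts are known to secrete or to use for signalling were followed through reprogramming of mouse embryonic fibroblasts (MEFs). They were picked by gene name, 9 of the 50600 genes in the table: the cytokines Il6, Il11, Lif and Il33, the IL-33 receptor gene Il1rl1, the prostaglandin enzymes Ptgs2 and Ptges, and the growth factors Csf1 and Hgf. The RNA-seq series held 28 libraries in 14 groups, with 2 libraries in each. All cells were primary MEFs of the genotype labelled WT, which carry an Oct4-GFP reporter by the study's methods. MEFs were sequenced without inhibitor (labelled as not treated, with no DMSO named) and with SB203580, an inhibitor of the p38 MAP kinases (p38i). The other cells had received Oct4, Klf4 and Sox2 (OKS) by retrovirus and were sequenced on days 1, 3, 5 and 7 of induction in the medium iCD1. They had grown in DMSO, in p38i during induction (p38i), or in p38i only before induction (pre-p38i). The samples are whole cultures, so fewer cells of a type and less RNA per cell cannot be told apart. Nothing says whether the 2 libraries of a group came from separate cultures, so p-values measure only the spread between these libraries, which may be technical.

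The p38 kinases act downstream of stress and inflammatory receptors. Through the kinase MK2 they are known to stabilize messenger RNAs with AU-rich elements, among them those of Il6, Lif and Ptgs2, and p38 activity is a known driver of the secretory phenotype of senescent fibroblasts. IL-6, IL-11 and LIF are members of a cytokine family that signals through the shared receptor subunit gp130 (Il6st) to STAT3. IL-33 is an alarmin of the IL-1 family and binds ST2, the product of Il1rl1. COX-2 (Ptgs2) makes the precursor from which the synthase encoded by Ptges makes prostaglandin E2. CSF1 maintains macrophages through CSF1R, and HGF acts on MET.

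By the table's own positions, on mm10, the genes lie at Il6 chr5:30013114-30019981 (+), Il11 chr7:4772373-4782857 (-), Lif chr11:4257557-4272514 (+), Il33 chr19:29925114-29960718 (+), Il1rl1 chr1:40429570-40465415 (+), Ptgs2 chr1:150100031-150108227 (+), Ptges chr2:30889471-30929863 (-), Csf1 chr3:107741048-107760469 (-) and Hgf chr5:16553495-16620152 (+), with the strand in parentheses. Each value covers a whole gene with all its transcripts. The genes Gm13400, which overlaps Ptges, and Gm43489 and Gm42975, which overlap Hgf, were at 0 in every library, and the library notes used here do not say whether strand was counted.

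The promoters of 5 members are shown because they differ in motifs of transcription factors known to act downstream of stress kinases and NF-kB. Each window runs from 250 bases before to 50 bases after the start of transcription in RefSeq (GRCm38.p6), 5′ to 3′ on the gene's strand. Capitals mark matches on either strand to AP-1 (TGANTCA), the cyclic AMP response element core (CRE, TGACGT), C/EBP (TTGCNNAA) or NF-kB (GGGA, any base, TTTCC).
Il6, chr5:30012864-30013163, + strand: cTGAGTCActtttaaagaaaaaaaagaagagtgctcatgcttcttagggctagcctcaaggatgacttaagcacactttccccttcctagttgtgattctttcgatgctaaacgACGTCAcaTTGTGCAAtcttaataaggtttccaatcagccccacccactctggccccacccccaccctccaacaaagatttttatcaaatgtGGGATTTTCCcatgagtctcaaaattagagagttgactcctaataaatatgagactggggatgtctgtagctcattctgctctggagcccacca
Ptgs2, chr1:150099781-150100080, + strand: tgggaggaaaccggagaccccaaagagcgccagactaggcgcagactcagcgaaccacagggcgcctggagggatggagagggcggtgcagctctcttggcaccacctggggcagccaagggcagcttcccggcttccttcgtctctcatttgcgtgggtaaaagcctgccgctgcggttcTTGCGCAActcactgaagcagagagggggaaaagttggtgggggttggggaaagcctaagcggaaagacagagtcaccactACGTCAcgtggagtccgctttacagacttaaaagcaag
Il11, second window, chr7:4778092-4778391, - strand: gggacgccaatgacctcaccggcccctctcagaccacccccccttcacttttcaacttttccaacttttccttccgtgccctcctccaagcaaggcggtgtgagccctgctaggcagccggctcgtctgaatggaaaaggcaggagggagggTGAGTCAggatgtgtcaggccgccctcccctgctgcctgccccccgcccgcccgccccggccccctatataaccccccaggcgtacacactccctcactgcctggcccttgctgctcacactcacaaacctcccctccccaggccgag
Lif, chr11:4257318-4257617, + strand: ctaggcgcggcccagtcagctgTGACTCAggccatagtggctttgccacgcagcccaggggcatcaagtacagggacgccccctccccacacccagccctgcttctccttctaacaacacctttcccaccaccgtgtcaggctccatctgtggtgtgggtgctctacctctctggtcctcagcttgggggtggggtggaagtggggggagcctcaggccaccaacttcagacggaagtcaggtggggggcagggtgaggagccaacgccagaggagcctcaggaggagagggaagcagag
Csf1, chr3:107760420-107760719, - strand: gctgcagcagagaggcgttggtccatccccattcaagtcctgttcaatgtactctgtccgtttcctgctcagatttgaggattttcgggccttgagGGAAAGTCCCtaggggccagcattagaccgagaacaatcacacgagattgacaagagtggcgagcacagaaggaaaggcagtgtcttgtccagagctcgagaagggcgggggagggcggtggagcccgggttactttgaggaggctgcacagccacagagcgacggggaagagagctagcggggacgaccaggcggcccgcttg

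Il6 held all 4 motifs: AP-1 at 249, CRE at 136, C/EBP at 128 and NF-kB at 44 bases before its start. Ptgs2 held C/EBP at 69 bases before and CRE at 13 bases after the start. Il11 and Lif held AP-1 alone, at 98 and 228 bases before, and Csf1 held NF-kB alone, at 154 bases before. Of the other windows, 1 of the Il33 windows held C/EBP, and the Il1rl1 windows held C/EBP in 1 and CRE in the other. None of the 4 was found in the windows of Ptges and Hgf, or in the first windows of Il11 and Il33. No match overlapped another. The 9 members had 13 windows in all. For comparison, AP-1 was found in 7.81%, CRE in 7.51%, C/EBP in 10.8% and NF-kB in 0.411% of all 32851 windows. A match is a description of the letters, and says nothing of binding in these cells.

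The values used are TPM that the authors deposited as whole numbers, rounded down, so a gene under 1 TPM is listed at 0. Their sums ran from 991287 to 992537 per library, and 12454 to 14170 genes were at 1 or above. The depth behind them is unknown. Of the 9 members, 7 had a mean of at least 1 over all libraries and were tested with limma on log2(value + 1). The means of Il6 (0.571) and Hgf (0.393) were under it, so they entered none of the counts of members called. Their values are given with the calls of a fit that had no filter on low values. These calls were not tried under any other setting. A fold change on this scale understates the change of low genes, and the data have no permutation test that could pass, since 2 libraries against 2 cannot go below an exact p of 0.333.

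**Figure D1:**
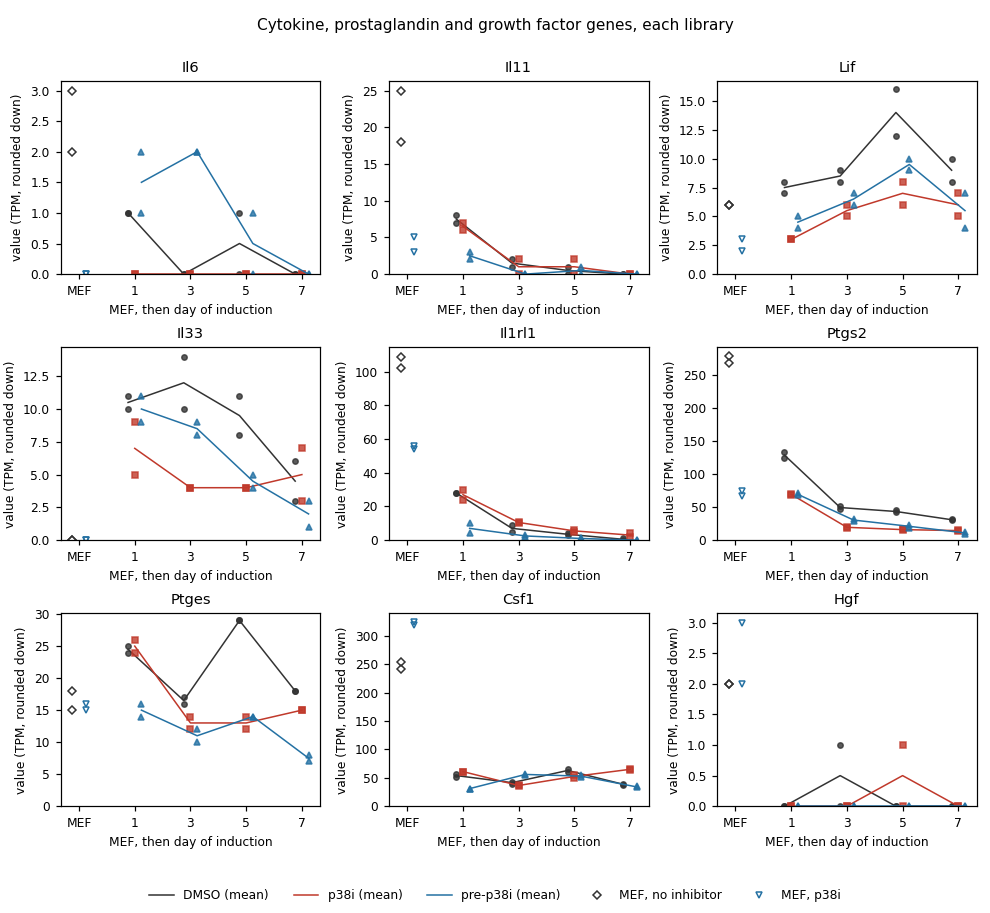
Value of each of the 9 genes (y axis, TPM rounded down, linear from 0) in MEFs and on days 1, 3, 5 and 7 of induction (x axis). Each point is 1 library, and lines join the means of 2 libraries in DMSO, p38i and pre-p38i. Ptgs2 in p38i and pre-p38i lies under DMSO on every day, Il33 is at 0 in MEFs, and Csf1 is highest in MEFs with p38i.

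Ptgs2 was lower than in the matched control in all 9 comparisons with p38i or pre-p38i. In MEFs with p38i, Ptgs2, Il11 and Lif were lower and Csf1 was higher. During induction Lif and Ptges were also lower on some days in both inhibitor arms, and Il33 was lower on days 3 and 5 of p38i and on day 7 of pre-p38i. Il1rl1 was lower on days 1, 3 and 5 of pre-p38i and higher on day 7 of p38i. Csf1 had no common direction. Counts of calls, at an adjusted p under 0.05, are given for the 7 tested members beside the share of all 13230 genes called.

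Of the 7 members, 1 was called higher in MEFs with p38i, where 9.73% of all genes were, and 3 lower, where 8.15% were, out of 17.9% called in all. In p38i against DMSO, none was higher and 2 were lower on day 1, where 3.47% and 12.6% of all genes were (16.1% in all). On day 3 none was higher and 3 were lower, against 5.22% and 16.2% (21.4% in all). On day 5 none was higher and 5 were lower, against 7.87% and 18.7% (26.6% in all). On day 7, 2 were higher and 1 lower, against 16.5% and 17.6% (34.1% in all). In pre-p38i against DMSO, none was higher and 4 were lower on day 1, against 5.40% and 6.24% of all genes (11.6% in all). On day 3, 1 was higher and 3 were lower, against 13.8% and 6.87% (20.6% in all). On day 5 none was higher and 4 were lower, against 14.3% and 11.3% (25.6% in all), and the counts were the same on day 7, against 15.4% and 14.5% (29.9% in all). Over the mean of the 4 days, 2 were higher and 4 lower in p38i, against 14.9% and 33.0% (47.9% in all), and 0 higher and 7 lower in pre-p38i, against 27.3% and 17.7% (45.0% in all). The median log2 fold change of the 7 members was -0.93 in MEFs, where that of all genes was 0. It was -0.91 on day 5 of p38i, where that of all genes was -0.076, and -0.78 on day 1 of pre-p38i, where that of all genes was 0. On day 7 of p38i both medians were 0. The comparisons of an arm with DMSO share their DMSO libraries.

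**Figure D2:**
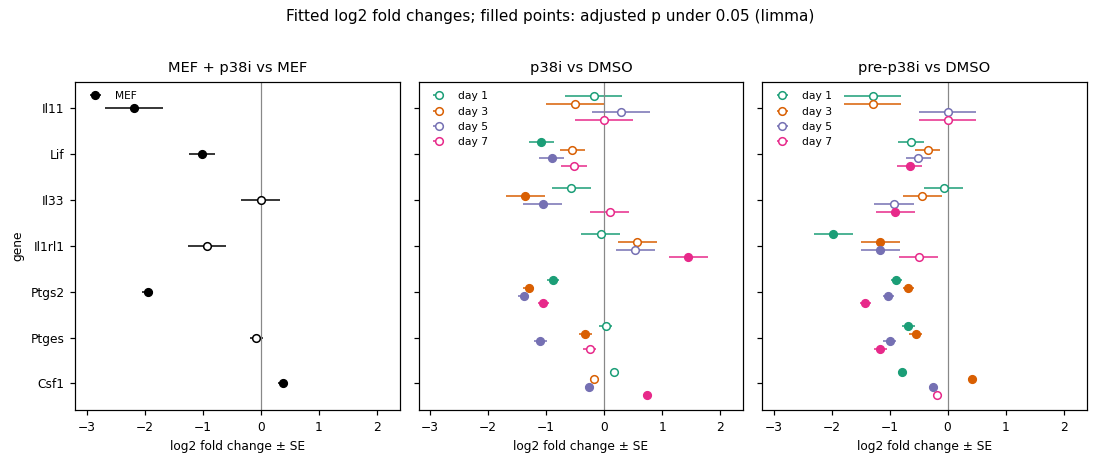
Fitted log2 fold change with its standard error (x axis) of the 7 tested genes (y axis) in MEFs with p38i, in p38i against DMSO and in pre-p38i against DMSO, by day. Filled points passed an adjusted p of 0.05 (limma). All 9 points of Ptgs2 are filled and left of 0.

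The scaling matters for the directions of all genes. Quantile normalization moved the median log2 fold change of all genes from 0.139 to -0.0716 between MEFs and DMSO day 1, from -0.076 to 0.0428 on day 3 and to 0.0289 on day 5 of p38i against DMSO, and from -0.161 to 0.0456 on day 3 and from -0.119 to 0.0234 on day 5 of p38i against pre-p38i. With it, the share of the calls that were higher went from 21.6% to 41.1% on day 1, from 24.4% to 50% on day 3 and from 29.6% to 52.7% on day 5 of p38i against DMSO. On day 3 of pre-p38i against DMSO this share went from 66.7% to 50.7%, and over the mean of the 4 days of p38i from 31.2% to 54.4%. No call of a member changed direction. It ended 9 calls of members, those of Ptges on day 3 and of Il33 and Csf1 on day 5 of p38i against DMSO, Il33 on day 7 and Il11 over the mean of the 4 days of pre-p38i against DMSO, Il33 on day 3 and Ptgs2 on day 5 of p38i against pre-p38i, Lif from DMSO day 3 to day 5, and Ptges in the change from MEFs with p38i to pre-p38i day 1. It added those of Csf1 on day 1 of p38i, Lif and Il33 on day 5 and Csf1 on day 7 of pre-p38i, Ptges on day 3 between the inhibitor arms, and Il1rl1 from DMSO day 3 to day 5.

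Il6 encodes the best known cytokine of senescent cells. It was listed at 3 and 2 in the MEFs without inhibitor, and at 0 in both MEF libraries with p38i. In DMSO it was at 1 and 1 on day 1, at 0 on days 3 and 7, and at 0 and 1 on day 5. All 8 libraries of p38i were at 0. On days 1, 3, 5 and 7 of pre-p38i it was at 2 and 1, 2 and 2, 1 and 0, and 0 and 0. The values are at the lower end of what whole numbers can show. With no filter on low values, Il6 was called lower in MEFs with p38i (adjusted p = 0.000427, limma) and on day 1 of p38i than in DMSO (adjusted p = 0.0325, limma). It was called higher in pre-p38i than in DMSO on day 3 (adjusted p = 0.00129, limma) and over the mean of the 4 days (adjusted p = 0.0181, limma). Between the inhibitor arms it was called lower in p38i on day 1 (adjusted p = 0.00390, limma) and day 3 (adjusted p = 0.000444, limma). In DMSO the steps from MEFs to day 1 (adjusted p = 0.0366, limma) and from day 1 to day 3 (adjusted p = 0.0128, limma) were called lower. The difference between the p38i effect in MEFs and that of pre-p38i on day 1 was called too (adjusted p = 0.00480, limma). Most of these comparisons have a group listed at 0, so no fold is given. A group with both libraries listed at 0 shows no spread, so the p-values depend on the rounding down.

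Il11, the cytokine of this family that fibroblasts are known to make under TGF-beta, was at 18 and 25 in MEFs (21.5 ± 4.95, SD, n = 2) and at 3 and 5 in MEFs with p38i (4 ± 1.41, SD, n = 2). It was at 8 and 7 on DMSO day 1 and at 6 and 7 on p38i day 1, but at 3 and 2 on pre-p38i day 1. From day 3 on no library was above 2. The MEF groups did not overlap, and the day 1 libraries of pre-p38i lay under those of both other arms. Il11 fell by 2.18 in MEFs with p38i (SE 0.496, adjusted p = 0.00404, limma). This call was lost without MEF p38i replicate 1 (adjusted p = 0.0551, limma) and when only these groups were fitted (adjusted p = 0.0860, limma). On day 1 its difference from DMSO was -0.18 in p38i (adjusted p = 0.879, limma) and -1.29 in pre-p38i (adjusted p = 0.104, limma), and p38i against pre-p38i was 1.11 (SE 0.496, adjusted p = 0.105, limma). Over the mean of the 4 days pre-p38i against DMSO was -0.65 (adjusted p = 0.0407, limma), a call lost in 16 of 21 alternatives.

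Lif encodes leukaemia inhibitory factor, which maintains mouse pluripotent stem cells. It was at 6 and 6 in MEFs and at 2 and 3 in MEFs with p38i, with no overlap, and fell by 1.01 (SE 0.218, adjusted p = 0.00257, limma). This call was lost without MEF p38i replicate 1 (adjusted p = 0.0529, limma) and when only these groups were fitted (adjusted p = 0.106, limma).

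On DMSO days 1, 3, 5 and 7, Lif was at 8 and 7, 9 and 8, 12 and 16, and 10 and 8. In p38i it was at 3 and 3, 6 and 5, 6 and 8, and 7 and 5 on the same days, and in pre-p38i at 4 and 5, 6 and 7, 10 and 9, and 4 and 7. Every library of p38i and pre-p38i lay under both DMSO libraries of its day. Lif was lower in p38i on day 1 (-1.08, SE 0.218, adjusted p = 0.00166, limma) and day 5 (-0.91, adjusted p = 0.00440, limma), and in pre-p38i on day 7 (-0.65, adjusted p = 0.0292, limma). The day 5 call was lost without DMSO day 5 replicate 2 (adjusted p = 0.0711, limma) or p38i day 5 replicate 1 (adjusted p = 0.0651, limma), and when only these groups were fitted (adjusted p = 0.132, limma). The day 7 call was lost without DMSO day 7 replicate 1 (adjusted p = 0.196, limma) or pre-p38i day 7 replicate 1 (adjusted p = 0.381, limma), with only these groups (adjusted p = 0.259, limma), and with the replicate block (adjusted p = 0.0540, limma). Over the mean of the 4 days Lif was lower in p38i (-0.77, adjusted p = 1.02e-05, limma) and in pre-p38i (-0.53, adjusted p = 0.000549, limma), and these calls held in all 22 alternatives of each. A difference between p38i and pre-p38i was called on no day (adjusted p = 0.134, 0.473, 0.141 and 0.637, limma).

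Of the receptor genes of this family, Il6st, Il11ra1 and Osmr were at 8 or above in every library, Cntfr was at 6 or under, and Il6ra, the IL-6 binding subunit, was near 0 in MEFs. Il6ra was at 1 and 2 in MEFs, 16 and 18 on DMSO day 1, and 43 and 44 on DMSO day 7. In pre-p38i it reached 55 and 55 on day 7, and in p38i 37 and 32. Il6ra was lower in p38i than in pre-p38i on every day, with log2 differences of -0.52, -0.63, -0.68 and -0.66 (adjusted p = 0.00536, 0.000646, 0.000251 and 0.000249, limma), with no overlap of libraries.

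Il6st was at 56 and 51 in MEFs and at 72 and 71 with p38i, and rose by 0.41 (adjusted p = 0.00502, limma). On day 7 it was at 25 and 26 in DMSO, 37 and 39 in p38i, and 26 and 24 in pre-p38i, so the p38i libraries lay above the others. Il11ra1, the receptor of IL-11, was at 22 and 27 in MEFs and, on day 7, at 17 and 19 in DMSO, 23 and 25 in p38i, and 8 and 16 in pre-p38i. Both pre-p38i libraries lay under those of DMSO, and 1 of them was much nearer to DMSO than the other, so no size is given for this difference. Lifr, the LIF receptor, was at 1 and 2 in MEFs, 3 and 4 in MEFs with p38i, and between 2 and 8 during induction.

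**Figure D3:**
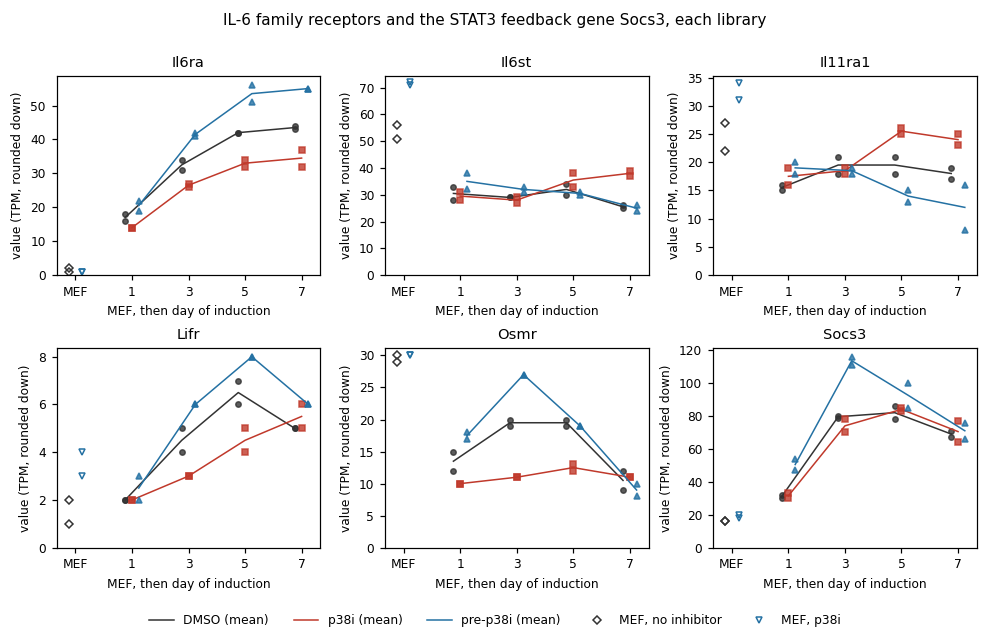
Values of the receptor genes Il6ra, Il6st, Il11ra1, Lifr and Osmr and of Socs3 (y axis, TPM rounded down) in MEFs and by day of induction (x axis), 1 point per library and a line through the mean of 2. Il6ra rises from 1 and 2 in MEFs to 55 and 55 on day 7 of pre-p38i, and Osmr is lowest in p38i on days 1, 3 and 5.

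Of the 19 tested genes of the IL-6 family list, 6 were higher and 1 lower in MEFs with p38i. In p38i against DMSO, 3, 6, 4 and 2 were lower and 0, 0, 1 and 4 higher on days 1, 3, 5 and 7. In pre-p38i, 1, 0, 1 and 2 were lower and 2, 7, 2 and 3 higher. Of all genes, 9.73% were higher and 8.15% lower in MEFs with p38i, 12.6%, 16.2%, 18.7% and 17.6% lower and 3.47%, 5.22%, 7.87% and 16.5% higher in p38i, and 6.24%, 6.87%, 11.3% and 14.5% lower and 5.40%, 13.8%, 14.3% and 15.4% higher in pre-p38i. On day 3 the list's median was -0.20 in p38i, where that of all genes was -0.076, and 0.22 in pre-p38i, where that of all genes was 0.07. Socs1, an inhibitor of JAK kinases, was at 17 and 19 on DMSO day 3, 7 and 6 in p38i, and 32 and 38 in pre-p38i. It was lower in p38i than in DMSO (log2 difference -1.34, adjusted p = 0.000631, limma) and higher in pre-p38i (0.92, adjusted p = 0.0134, limma). Socs3, which STAT3 induces, was at 47 and 54 on pre-p38i day 1 against 32 and 30 in DMSO, and rose by 0.68 (adjusted p = 0.000129, limma).

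Il33 and its receptor gene Il1rl1 ran in opposite directions between MEFs and induction. Il33 was listed at 0 in all 4 MEF libraries, so no fold is given against them. On DMSO days 1, 3, 5 and 7 it was at 10 and 11, 14 and 10, 11 and 8, and 3 and 6. The rise from MEFs to DMSO day 1 was called (adjusted p = 2.45e-08, limma).

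In p38i Il33 was at 5 and 9, 4 and 4, 4 and 4, and 7 and 3 on the same days. In pre-p38i it was at 11 and 9, 8 and 9, 5 and 4, and 3 and 1. The p38i libraries lay under the DMSO libraries on days 1, 3 and 5, and those of pre-p38i on days 3 and 5. Il33 was lower in p38i on day 3 (-1.36, SE 0.337, adjusted p = 0.00633, limma) and day 5 (-1.06, adjusted p = 0.0258, limma), and in pre-p38i on day 7 (-0.90, adjusted p = 0.0498, limma). The day 3 call was lost without DMSO day 3 replicate 1 (adjusted p = 0.0773, limma), and the day 5 call without DMSO day 5 replicate 1 (adjusted p = 0.167, limma), without either p38i library (adjusted p = 0.0949 and 0.0932, limma) or after quantile normalization (adjusted p = 0.0534, limma). The day 7 call was lost with the replicate block (adjusted p = 0.0725, limma), after quantile normalization (adjusted p = 0.0709, limma) and without DMSO day 7 replicate 2 (adjusted p = 0.417, limma) or pre-p38i day 7 replicate 2 (adjusted p = 0.485, limma). The calls of days 3 and 7 were also lost when only the groups compared were fitted (adjusted p = 0.0725 and 0.355, limma), as was that of day 5 (adjusted p = 0.0812, limma). Over the mean of the 4 days Il33 was lower in p38i (-0.72, adjusted p = 0.00155, limma) and in pre-p38i (-0.58, adjusted p = 0.00820, limma), in all 22 alternatives of each.

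Il1rl1 encodes both a membrane receptor and a soluble form, which 1 value per gene cannot separate. It was at 102 and 109 in MEFs (105.5 ± 4.95, SD, n = 2) and at 56 and 54 in MEFs with p38i (55 ± 1.41, SD, n = 2), which did not overlap. Their difference of -0.93 was not called (SE 0.334, adjusted p = 0.0619, limma), but it was in a fit of only these 4 libraries (adjusted p = 0.0222, limma). On DMSO days 1, 3, 5 and 7 it was at 28 and 28, 5 and 9, 3 and 4, and 0 and 1.

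In p38i Il1rl1 was at 24 and 30, 10 and 11, 5 and 6, and 4 and 2, and in pre-p38i at 10 and 4, 2 and 3, 1 and 1, and 0 and 0. From day 3 on, every p38i library lay above the DMSO libraries, and every pre-p38i library lay under them on days 1, 3 and 5. Il1rl1 was lower in pre-p38i on day 1 (-1.97, SE 0.334, adjusted p = 0.000621, limma), day 3 (-1.16, adjusted p = 0.0181, limma) and day 5 (-1.16, adjusted p = 0.0145, limma), and higher in p38i on day 7 (1.45, adjusted p = 0.00215, limma). The p38i call rests on DMSO values of 0 and 1, and was lost without DMSO day 7 replicate 1 (adjusted p = 0.0665, limma). In pre-p38i the day 3 call was lost without DMSO day 3 replicate 2 (adjusted p = 0.194, limma) or pre-p38i day 3 replicate 1 (adjusted p = 0.150, limma), and the day 5 call without DMSO day 5 replicate 2 (adjusted p = 0.109, limma) or either pre-p38i library (adjusted p = 0.0644 and 0.0653, limma). Fitting only the groups compared ended the calls of day 1 (adjusted p = 0.194, limma), day 3 (adjusted p = 0.184, limma) and day 7 (adjusted p = 0.168, limma).

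Set side by side, p38i was higher than pre-p38i on each day, by 1.91, 1.73, 1.70 and 1.95 on the log2 scale for Il1rl1 (adjusted p = 0.000226, 0.000344, 0.000338 and 5.86e-05, limma). With only the groups of day 1 that difference was not called (adjusted p = 0.132, limma). No other member was called in the same direction on all 4 days of this comparison. Mast cells also express Il1rl1: of 8 mast cell markers, all 8 were at 0 in the MEF libraries with and without p38i, and 7 of 8 did not exceed 3 in any library, Kit being the exception. The part of mast cells in the values of Il1rl1 was not tested.

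Il1rap, the partner chain of ST2 and of the IL-1 receptor, was at 9 and 12 in MEFs, and on day 7 at 19 and 18 in DMSO, 21 and 23 in p38i and 10 and 11 in pre-p38i. It was lower in pre-p38i on day 5 (-0.49, adjusted p = 0.00658, limma) and day 7 (-0.76, adjusted p = 0.000114, limma). Of the 14 tested genes of the IL-1 family list, 0 were higher and 2 lower in MEFs with p38i. On days 1, 3, 5 and 7, 1, 2, 2 and 3 were higher and 4, 5, 3 and 3 lower in p38i, and 0, 2, 1 and 0 higher and 1, 1, 2 and 4 lower in pre-p38i, where over these 9 comparisons 3.47% to 16.5% of all genes were higher and 6.24% to 18.7% lower. Il1rn, the natural antagonist of the IL-1 receptor, was at 61 and 64 on day 1 of p38i and 30 and 24 in DMSO, and at 1 and 2 on day 7 of pre-p38i and 9 and 7 in DMSO. It rose by 1.19 in the first (adjusted p = 0.000757, limma) and fell by 1.87 in the second (adjusted p = 2.03e-06, limma). Irak2, a kinase of this pathway, was lower in MEFs with p38i (-0.75, adjusted p = 0.00217, limma) and on all 4 days of p38i, from 19 and 17 to 8 and 9 on day 1 (-1.0, adjusted p = 0.000192, limma). The cytokine genes Il1a and Il1b were at 0 in every library but 1, in which Il1a was at 1.

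Ptgs2 was the member with the clearest differences. It was at 269 and 279 in MEFs (274 ± 7.07, SD, n = 2) and at 67 and 74 in MEFs with p38i (70.5 ± 4.95, SD, n = 2), which is 3.89-fold lower. The log2 fold change was -1.94 (SE 0.0955, adjusted p = 3.3e-11, limma). On DMSO days 1, 3, 5 and 7 it was at 133 and 125, 47 and 52, 42 and 45, and 30 and 32.

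In p38i Ptgs2 was at 70 and 69, 20 and 19, 17 and 15, and 15 and 14 on the same days, and in pre-p38i at 71 and 68, 29 and 32, 19 and 23, and 12 and 10. No library of either arm reached the DMSO libraries of its day. The means in DMSO were 1.86, 2.54, 2.72 and 2.14 times those in p38i, and 1.86, 1.62, 2.07 and 2.82 times those in pre-p38i. Called differences from DMSO were -0.88, -1.30, -1.39 and -1.05 in p38i (SE 0.0955, adjusted p = 2.61e-06, 8.9e-09, 3.14e-09 and 9.98e-08, limma). In pre-p38i they were -0.88, -0.68, -1.02 and -1.42 (adjusted p = 4.65e-06, 4.95e-05, 2.12e-07 and 1.2e-09, limma). Of these 8 calls, that of day 3 of pre-p38i was lost when only the groups compared were fitted (adjusted p = 0.0656, limma), and no other was lost in any alternative.

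On day 1 the arms had the same mean of 69.5 whether p38i was present or had been removed, with a difference of 0.00 (SE 0.0955, adjusted p = 1, limma). On day 3 Ptgs2 was lower in p38i than in pre-p38i (-0.62, adjusted p = 3.46e-05, limma), as on day 5 (-0.37, adjusted p = 0.00362, limma), and on day 7 it was higher (0.37, adjusted p = 0.00268, limma). The day 5 call was lost after quantile normalization (adjusted p = 0.0852, limma), without p38i day 5 replicate 2 (adjusted p = 0.0577, limma) and without pre-p38i day 5 replicate 2 (adjusted p = 0.0895, limma). That of day 7 was lost without pre-p38i day 7 replicate 2 (adjusted p = 0.0663, limma). Both were lost when only these groups were fitted (adjusted p = 0.148 and 0.102, limma).

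Ptges differed from Ptgs2 in MEFs, where it was at 18 and 15 without and 16 and 15 with p38i (difference -0.08, SE 0.112, adjusted p = 0.725, limma). On DMSO days 1, 3, 5 and 7 it was at 25 and 24, 17 and 16, 29 and 29, and 18 and 18. In p38i it was at 24 and 26, 14 and 12, 12 and 14, and 15 and 15, and in pre-p38i at 16 and 14, 12 and 10, 14 and 14, and 7 and 8. All libraries of pre-p38i, and those of p38i from day 3 on, lay under DMSO.

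In pre-p38i the log2 differences of Ptges were -0.67, -0.55, -1.0 and -1.16 (SE 0.112, adjusted p = 0.000508, 0.00162, 1.87e-06 and 1.67e-07, limma), of which the first 2 were lost with only the groups compared (adjusted p = 0.0998 and 0.112, limma). In p38i they were 0.03, -0.33, -1.10 and -0.25 (adjusted p = 0.942, 0.0447, 5.37e-07 and 0.0972, limma). The day 3 call was lost after quantile normalization (adjusted p = 0.286, limma), with only the groups compared (adjusted p = 0.184, limma) and without DMSO day 3 replicate 1 (adjusted p = 0.198, limma), DMSO day 3 replicate 2 (adjusted p = 0.0848, limma) or p38i day 3 replicate 2 (adjusted p = 0.301, limma). Between the inhibitor arms, Ptges was higher in p38i on day 1 (0.70, adjusted p = 8.71e-05, limma) and day 7 (0.92, adjusted p = 1.08e-06, limma). The day 1 difference was not called with only those groups (adjusted p = 0.0538, limma).

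**Figure D4:**
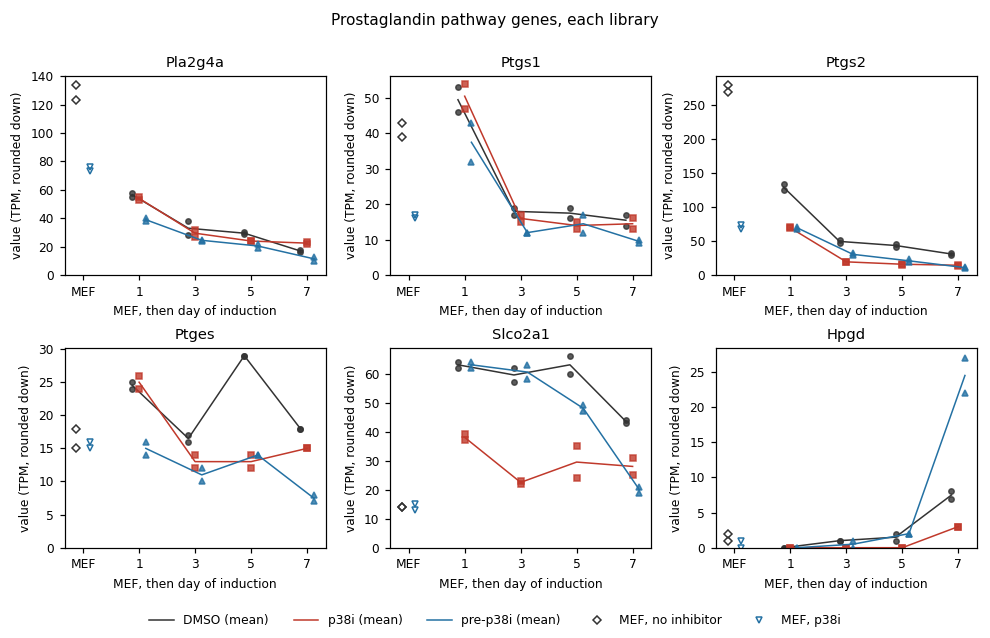
Values of 6 genes of prostaglandin release, synthesis, transport and breakdown (y axis, TPM rounded down) in MEFs and by day of induction (x axis), 1 point per library and a line through the mean of 2. Slco2a1 lies under DMSO in p38i on all days.

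Of the 24 other prostaglandin genes listed, 13 were tested. In MEFs with p38i 1 was higher and 4 lower, with a list median of -0.07. On days 1, 3, 5 and 7, 2, 4, 5 and 5 were lower and 0, 1, 1 and 1 higher in p38i, and 4, 3, 2 and 3 lower and 1, 2, 1 and 3 higher in pre-p38i. The shares of all genes over these 9 comparisons were 6.24% to 18.7% lower and 3.47% to 16.5% higher. Pla2g4a, the phospholipase that releases arachidonic acid, was at 123 and 134 in MEFs and 76 and 73 with p38i, and fell by 0.78 (adjusted p = 0.000145, limma). Ptgs1, which encodes COX-1, was at 43 and 39 in MEFs and 16 and 17 with p38i, and fell by 1.26 (adjusted p = 1.17e-05, limma). The uptake carrier gene Slco2a1 did not follow them: it was at 14 and 14 without and 15 and 13 with p38i.

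During induction Slco2a1 was at 64 and 62, 62 and 57, 60 and 66, and 44 and 43 in DMSO, and at 37 and 39, 23 and 22, 35 and 24, and 25 and 31 in p38i. It was lower on all 4 days of p38i, with differences of -0.71, -1.36, -1.09 and -0.63 (adjusted p = 0.00044, 1.3e-07, 2.09e-06 and 0.000589, limma). Ptger4, a receptor for prostaglandin E2, was at 11 and 8 on day 3 of pre-p38i against 6 and 4 in DMSO, and rose by 0.81 (adjusted p = 0.0128, limma). Among the other receptors, Ptger2 and Ptger3 were at 0 in all 28 libraries and Ptger1 was at 3 or under.

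Csf1 was the member with the highest mean, 82.6 over all libraries, and the one higher in MEFs with p38i. It was at 255 and 241 in MEFs and at 319 and 325 with p38i, without overlap. The rise was 0.38 (SE 0.0708, adjusted p = 0.000821, limma), and was not called in a fit of only these groups (adjusted p = 0.0542, limma). On DMSO day 1 it was at 57 and 51, and fell by 2.18 on the log2 scale from MEFs (adjusted p = 1.14e-15, limma).

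On DMSO days 3, 5 and 7 Csf1 was at 40 and 43, 60 and 66, and 37 and 40. In p38i it was at 61 and 61, 38 and 35, 55 and 50, and 66 and 64 on days 1, 3, 5 and 7, and in pre-p38i at 31 and 31, 55 and 57, 55 and 51, and 35 and 33. Its order among the arms changed from day to day: pre-p38i was the lowest on days 1 and 7 and the highest on day 3.

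In p38i Csf1 was higher on day 7 (0.74, adjusted p = 1.74e-07, limma) and lower on day 5 (-0.26, adjusted p = 0.0106, limma). In pre-p38i it was lower on day 1 (-0.78, adjusted p = 5.17e-07, limma) and day 5 (-0.24, adjusted p = 0.0152, limma), and higher on day 3 (0.42, adjusted p = 0.000277, limma). Both day 5 calls were lost without DMSO day 5 replicate 2 (adjusted p = 0.130 and 0.162, limma), the first also without p38i day 5 replicate 2 (adjusted p = 0.125, limma) and after quantile normalization (adjusted p = 0.0685, limma), and the second without pre-p38i day 5 replicate 2 (adjusted p = 0.143, limma). Both were also lost with only the groups compared (adjusted p = 0.185 and 0.165, limma), as were those of day 1 (adjusted p = 0.0712, limma) and day 3 (adjusted p = 0.0636, limma) of pre-p38i.

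Csf1r, the receptor gene, is itself a macrophage marker. It was at 15 and 13 in MEFs and 5 and 5 with p38i, and fell by 1.32 (adjusted p = 0.00701, limma). During induction no library was above 4, and in pre-p38i none was above 1. The summed level of 16 macrophage markers, Csf1r included, was 354 and 339 in MEFs and 237 and 240 with p38i. On DMSO days 1, 3, 5 and 7 it was 294 and 286, 481 and 490, 528 and 531, and 275 and 282. In pre-p38i it was 106 and 101, 202 and 187, 123 and 115, and 63 and 50, and in p38i 206 and 218, 276 and 265, 241 and 251, and 260 and 221. The markers did not move together from MEFs without inhibitor to DMSO day 5. Lyz2 rose from 154 and 152 to 270 and 261, and Marco from 0 and 0 to 50 and 56. Cd68, C1qc, Adgre1, Ctss and Ms4a7 also rose in mean. Csf1r fell from 15 and 13 to 4 and 3, and Cd14 from 14 and 11 to 6 and 3. C1qa, C1qb, Mrc1, Tyrobp and Fcer1g also fell in mean. Of the 14 tested markers, 8 were lower in MEFs with p38i, and 9, 11, 14 and 14 were lower in pre-p38i on days 1, 3, 5 and 7. In p38i 3, 10, 11 and 6 were lower and 1, 0, 1 and 1 higher, where over these 9 comparisons 6.24% to 18.7% of all genes were lower and 3.47% to 16.5% higher. The marker called higher was Cd68, named here after its values were seen, at 58 and 68 on day 1 of p38i and 37 and 32 in DMSO (adjusted p = 0.000122, limma), and higher also on day 5 (adjusted p = 0.0231, limma) and day 7 (adjusted p = 0.00211, limma). Lyz2, the most abundant, was at 154 and 152 in MEFs and at 9 and 7 on day 7 of pre-p38i, and Ptprc and Aif1 were at 2 or under in every library. The part of these markers in the results on Ptgs2, Lif and Ptges was not tested.

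**Figure D5:**
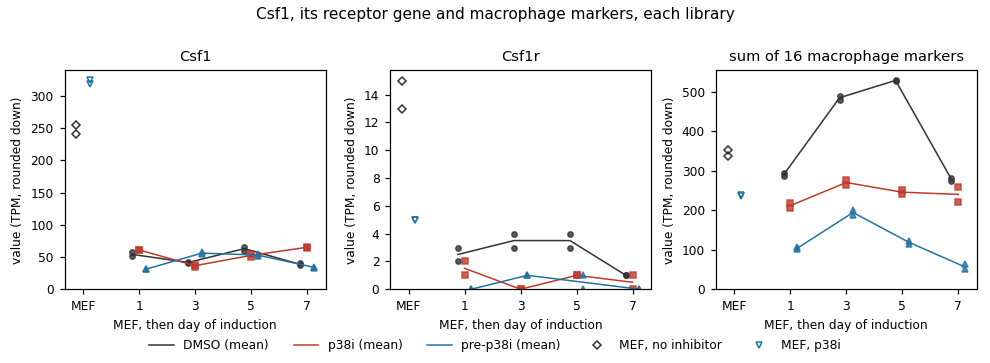
Values of Csf1 and Csf1r and the sum of 16 macrophage markers (y axis, TPM rounded down) in MEFs and by day of induction (x axis), 1 point per library and a line through the mean of 2. The marker sum peaks at 528 and 531 on DMSO day 5 and is lowest, at 63 and 50, on day 7 of pre-p38i, while Csf1 is highest in MEFs with p38i. Not every marker rises to that peak: Csf1r is at 15 and 13 in MEFs without inhibitor and 4 and 3 on DMSO day 5.

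Il34, the other known ligand of CSF1R, was near 0 in MEFs, at 0 and 1, and reached 148 and 152 on DMSO day 7, where it was at 205 and 172 in p38i and 81 and 70 in pre-p38i. It fell by 0.98 in pre-p38i (adjusted p = 0.000757, limma). Hgf was at 2 and 2 in MEFs and 2 and 3 with p38i, and was at 0 or 1 in every library of the induction. With no filter on low values it was called lower on DMSO day 1, where both libraries were at 0, than in MEFs (adjusted p = 0.000114, limma), and no comparison of an inhibitor arm with its control was called for it. Met, its receptor gene, was at 11 and 8 in MEFs, and on day 7 at 6 and 6 in DMSO, 13 and 12 in p38i and 9 and 8 in pre-p38i. It rose by 0.95 in p38i (adjusted p = 1.73e-05, limma) and by 0.44 in pre-p38i (adjusted p = 0.017, limma).

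Of the 11 tested partners of CSF1 and HGF, 0 were higher and 3 lower in MEFs with p38i. In p38i 3, 6, 7 and 4 were lower and 0, 1, 1 and 2 higher on days 1, 3, 5 and 7, and in pre-p38i 3, 3, 4 and 4 lower and 0, 2, 0 and 1 higher, against 6.24% to 18.7% of all genes lower and 3.47% to 16.5% higher over these 9 comparisons. Plau and Plaur encode urokinase, which activates HGF, and its receptor. Plaur was at 286 and 276 in MEFs and 138 and 141 with p38i, and fell by 1.00 (adjusted p = 7.69e-07, limma). Plau was at 57 and 61 on DMSO day 7 and 12 and 15 in pre-p38i, and fell by 2.06 (adjusted p = 5.1e-12, limma). In p38i it was at 61 and 61.

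The difference of a member from its control could change between time points, and 3 such changes were tested. From day 1 to day 7 of p38i against DMSO, the difference of 2 of 7 members moved upward, those of Il1rl1 and Csf1, and none moved downward, where 14.1% and 7.55% of all genes did (21.6% in all). In pre-p38i Il1rl1 and Csf1 moved upward and Ptgs2 and Ptges downward, where 7.25% and 9.43% of all genes did (16.7% in all). From MEFs with p38i to the first day after its removal, 1 moved upward and 2 downward, where 3.59% and 4.36% of all genes did (7.95% in all). The difference of Ptgs2 moved by 1.06 (SE 0.135, adjusted p = 3.69e-05, limma), that of Ptges by -0.59 (SE 0.159, adjusted p = 0.0242, limma) and that of Csf1 by -1.16 (SE 0.1, adjusted p = 3.2e-07, limma). The call of Ptges was lost in 7 of 14 alternatives.

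Between the inhibitor arms, 3 members were higher and 0 lower in p38i than in pre-p38i on day 1, where 8.25% and 19.9% of all genes were (28.2% in all). On day 3, 1 was higher and 3 were lower, against 10.7% and 31.4% (42.2% in all). On day 5 there was 1 in each direction, against 16.3% and 31.1% (47.5% in all). On day 7, 5 were higher and 0 lower, against 24.8% and 29.5% (54.3% in all). After quantile normalization the counts were 3 and 0, 2 and 2, 1 and 0, and 5 and 0, and the share of all calls that were higher went from 29.3% to 44.5%, from 25.5% to 53.7% and from 34.4% to 52.9% on the first 3 of these days. Those of day 7 were Il33, Il1rl1, Ptgs2, Ptges and Csf1, with log2 differences of 1.00, 1.95, 0.37, 0.92 and 0.92. That of Il33 was lost without p38i day 7 replicate 1 (adjusted p = 0.289, limma) or pre-p38i day 7 replicate 2 (adjusted p = 0.290, limma). For Csf1 the difference was 0.95 on day 1 and -0.61 on day 3.

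Without the inhibitor, more members were called lower than higher at each step of induction except that from day 3 to day 5. From MEFs to DMSO day 1, 2 were higher and 4 lower, where 36.6% and 18.9% of all genes were (55.5% in all), with a median of -1.08 where that of all genes was 0.139. From day 1 to day 3, 0 were higher and 5 lower, against 20.5% and 24.0% (44.5% in all). From day 3 to day 5, 3 were higher and 0 lower, against 13.8% and 5.57% (19.4% in all). From day 5 to day 7, 0 were higher and 5 lower, against 10.3% and 16.4% (26.7% in all). Quantile normalization took the share of all calls that were higher from 65.9% to 47.5% in the first and from 71.3% to 50.8% in the third of these steps. On day 5 the members called higher were Lif (0.65, adjusted p = 0.0433, limma), Ptges (0.78, adjusted p = 6.29e-05, limma) and Csf1 (0.59, adjusted p = 8.57e-06, limma), of which that of Lif was lost in 8 of 10 alternatives. From MEFs to day 7 the mean of Ptgs2 fell 8.84-fold. It fell 4.16-fold from day 1 to day 7.

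Ordered by their means, the 14 groups followed no common order over the members. The highest group was MEFs without inhibitor for Il6, Il11, Il1rl1 and Ptgs2, MEFs with p38i for Csf1 and Hgf, DMSO day 5 for Lif and Ptges, and DMSO day 3 for Il33. It was apart from the next group for Il11, Lif, Il1rl1, Ptgs2, Ptges and Csf1, and overlapped it for Il6, Il33 and Hgf. For Ptgs2, DMSO day 1 (129) and then the 3 groups MEFs with p38i (70.5), p38i day 1 (69.5) and pre-p38i day 1 (69.5) followed, and those 3 overlapped. For Lif the groups from pre-p38i day 5 (9.5) to pre-p38i day 1 (4.5) formed a chain in which each overlapped the next. For Csf1 all groups of the induction had means from 31 to 65.

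The members did not move as 1 unit. Over the 14 group means of log2(value + 1), Pearson's r was 0.910 between Il11 and Il1rl1, 0.903 between Il11 and Ptgs2 and 0.809 between Il1rl1 and Ptgs2, but -0.175 between Lif and Ptgs2 and -0.766 between Il33 and Csf1. The genes most like each member in this measure, among about 10667 others with a mean of at least 5, were Vegfa (0.975), Acta1 and Nabp1 for Il11, and Plaur (0.981), Emb and Col1a1 for Ptgs2. They were Clip2 (0.980), Speg and Fn1 for Il1rl1, Nab2 (0.962), Amotl2 and Cyp1b1 for Csf1, and Tmprss11b (0.984), Chrna1 and Tmem43 for Il33. For Lif they were Chd9 (0.918), RP23-246F14.5 and Col18a1, and for Ptges Slc48a1 (0.856), Cpeb2 and Ogfod1. Most of these names depend on the measure. By Spearman's rank correlation only Plaur for Ptgs2, and Chd9 and RP23-246F14.5 for Lif, stayed among the 3 genes most like their member. Nab2 had a rank correlation of 0.714 with Csf1. The group means share libraries, and much of the variation is that between MEFs and induction.

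Genes that act on the messages of the members, or on their promoters, were followed by list. Of 16 genes of AU-rich mRNA binding and decay, 1 was higher and 1 lower in MEFs with p38i, 0, 0, 1 and 2 were higher and 4, 6, 5 and 6 lower on days 1, 3, 5 and 7 of p38i, and 2, 4, 4 and 3 were higher and 1, 0, 2 and 1 lower in pre-p38i. Of all genes, 3.47% to 16.5% were higher and 6.24% to 18.7% lower over these 9 comparisons. Zfp36l1, which encodes a protein that speeds decay of such messages, was at 68 and 61 on DMSO day 3, 38 and 39 in p38i and 72 and 69 in pre-p38i. It fell by 0.73 in p38i (adjusted p = 1.46e-05, limma). Dusp1, a phosphatase that inactivates p38, was at 21 and 18 on DMSO day 7, 39 and 41 in p38i and 11 and 9 in pre-p38i, with differences from DMSO of 1.00 (adjusted p = 3.21e-07, limma) and -0.90 (adjusted p = 1.17e-06, limma).

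Of 19 tested genes of NF-kB and C/EBP, 1 was higher and 1 lower in MEFs with p38i. In p38i 1, 0, 0 and 2 were higher and 2, 4, 9 and 0 lower on days 1, 3, 5 and 7, and in pre-p38i 2, 5, 0 and 0 were higher and 3, 1, 5 and 6 lower, where the shares of all genes were again 3.47% to 16.5% higher and 6.24% to 18.7% lower. Cebpb, a regulator of Il6, was at 122 and 110 in MEFs and 86 and 87 with p38i, and fell by 0.42 (adjusted p = 0.0131, limma). Icam1, an NF-kB target, was at 28 and 30 on DMSO day 5 and 11 and 12 in p38i, and fell by 1.26 (adjusted p = 0.000162, limma).

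Of 29 tested other factors of the senescent phenotype, 3 were higher and 15 lower in MEFs with p38i, with a list median of -0.36 where that of all genes was 0. On days 1, 3, 5 and 7, 0, 2, 2 and 5 were higher and 15, 14, 16 and 10 lower in p38i, and 3, 3, 4 and 5 were higher and 10, 11, 13 and 17 lower in pre-p38i. The shares of all genes were 9.73% higher and 8.15% lower in MEFs with p38i, 3.47%, 5.22%, 7.87% and 16.5% higher and 12.6%, 16.2%, 18.7% and 17.6% lower in p38i, and 5.40%, 13.8%, 14.3% and 15.4% higher and 6.24%, 6.87%, 11.3% and 14.5% lower in pre-p38i. On day 7 the list's median was 0.04 in p38i, where that of all genes was 0, and -0.45 in pre-p38i, where it was 0.0531. Inhba, an activin subunit gene, was at 306 and 299 in MEFs and 114 and 118 with p38i, and fell by 1.38 (adjusted p = 0.00016, limma). Igfbp3, which binds insulin-like growth factors, was at 1783 and 1765 on DMSO day 7 and 487 and 488 in pre-p38i, and fell by 1.86 (adjusted p = 6.11e-14, limma). Gdf15, a stress cytokine, was at 13 and 16 on DMSO day 7 and 4 and 5 in p38i, and fell by 1.49 (adjusted p = 1.73e-05, limma).

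The libraries carried markers of fibroblasts, and of the states that follow. The sum of 12 fibroblast markers was 15091 and 14410 in MEFs and 11051 and 11155 with p38i. It fell to 3577 and 3770 on DMSO day 7, 4574 and 4551 in p38i and 2612 and 2465 in pre-p38i. Not every marker fell. From MEFs without inhibitor to DMSO day 7, Dcn rose from 7 and 7 to 104 and 102, and Lum from 0 and 0 to 39 and 46. Fap rose from 4 and 6 to 14 and 10, and Col3a1 from 247 and 284 to 292 and 313, while the other markers fell. Of these 12 markers, 6 were lower in MEFs with p38i, 8, 9, 8 and 1 on days 1, 3, 5 and 7 of p38i, and 6, 8, 11 and 12 of pre-p38i. None was higher in MEFs with p38i, 0, 1, 2 and 3 were higher in p38i, and 1, 0, 0 and 0 in pre-p38i, so on day 7 of p38i more were higher than lower. Of all genes, 16.5% were higher and 17.6% lower on that day. Over these 9 comparisons, 3.47% to 16.5% of all genes were higher and 6.24% to 18.7% lower. Their part in the results on Ptgs2 and the other members was not tested. The sum of 7 epithelial markers was 496 and 464 on DMSO day 7, 220 and 201 in p38i and 911 and 953 in pre-p38i. The 10 pluripotency markers together were at 81 and 94, 13 and 15, and 143 and 137 in the same groups, and at 0 in MEFs. The sum of the 8 endothelial markers was 10 to 15 in the MEF libraries and 60 to 70 in those of days 5 and 7 of all arms, with Emcn and Tie1 at 0 in every library. Its rise was that of Tek, which was at 0 in all MEF libraries and at 57 and 58 on DMSO day 7. Egfl7 went the other way, from 13 and 8 in MEFs without inhibitor to 3 and 1 on DMSO day 7. Pecam1, Cdh5 and Cldn5 were at 2 or under in every library. The sum of the 8 keratinocyte markers was 6 to 20 in MEFs, and on day 7 it was 52 and 48 in DMSO, 27 and 26 in p38i, and 48 and 51 in pre-p38i. Sfn made up most of the sum on day 7, at 37 and 35 in DMSO, and Krt5 and Krt1 were at 1 or under in every library. Of the 10 T and NK cell markers, 6 were at 0 in every library, and Cd3g alone passed 3. Their sum was 1 or 2 in MEFs, and on day 5 it was 54 and 52 in DMSO, 8 and 8 in p38i, and 42 and 46 in pre-p38i. The part of these markers in the results on the members was not tested.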

How the data were processed

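RNA-seq of 28 libraries was analysed from the 1 table deposited for the series. The values are a score: per gene, the authors deposited whole numbers, which were read as TPM rounded down because all libraries had nearly the same sum (991287 to 992537). Per the labels, the processing notes name RSEM 1.3.0, Bowtie2 2.2.5 and bcl2fastq, with the builds mm10 and hg38, without roles. The study's methods name no aligner. They also describe the library kit and RNA extraction differently from the labels. Depth is unknown, so no counting interval was given and no count test was used.

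Groups were taken from the labels. Genes with a mean of at least 1 (13230 of 50600) entered a limma fit (version 3.58.1, R 4.3.3, moderated with a mean-variance trend) on log2(value + 1), with the 14 groups in 1 fit, no replicate block, and Benjamini-Hochberg adjustment over all tested genes for each of 22 comparisons. Calls were made at an adjusted p under 0.05, two-sided. The fit was tested on simulated data. The members, the gene lists and the tests were chosen with earlier results of these data known. The 9 members were always named, as were their receptors, and of each list at most the 3 called genes with the largest fold changes per comparison and a mean of at least 5. Some genes that this rule names are not reported here. The alternatives changed the pseudocount (0.5), the filter (none, or a mean of 5), the groups fitted, the scaling (quantile normalization), the block (replicate number) and the libraries (each left out in turn). The 2 libraries of a group correlated at 0.982 to 0.991, and none were identical. Replicate numbers did not pair the samples: over 91 pairs of groups the deviations of same-numbered libraries correlated between -0.0838 and 0.0874.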

Additional observations from a re-analysis of the deposited data

Results flagged for a closer look

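The 9 results here are differences between groups, in which the effect of p38i on a member, on the log2(value + 1) scale, differed between time points in a test of the difference itself. Groups of 2 libraries are too small for a test of single libraries that stand apart.

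In p38i against DMSO, the difference of Il1rl1 was 1.51 higher on day 7 than on day 1 (adjusted p = 0.0272, limma), and that of Csf1 was 0.57 higher (adjusted p = 0.000462, limma). In pre-p38i against DMSO, the difference of Il1rl1 was 1.47 higher on day 7 than on day 1 (adjusted p = 0.0387, limma), and that of Csf1 was 0.61 higher (adjusted p = 0.000272, limma). In the same comparison Ptgs2 changed by -0.54 (adjusted p = 0.00922, limma) and Ptges by -0.49 (adjusted p = 0.0406, limma).

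Between MEFs with p38i and day 1 of pre-p38i, the difference of Ptgs2 changed by 1.06 (adjusted p = 3.69e-05, limma), that of Ptges by -0.59 (adjusted p = 0.0242, limma) and that of Csf1 by -1.16 (adjusted p = 3.2e-07, limma). The labels of the MEFs name neither DMSO nor OKS, so the inhibitor's removal and the start of induction cannot be told apart here. The values of Il1rl1 rest on DMSO day 7 libraries at 0 and 1. In pre-p38i those of day 7 were at 0 and 0, so the difference of Il1rl1 had to shrink at the floor of the scale. Its call in p38i was lost in 6 of 14 alternatives and that in pre-p38i in 10 of 14, and both calls of Ptges in 7 of 14. The Ptgs2 call in pre-p38i was lost in 2 of 14. The 3 calls of Csf1 and that of Ptgs2 between MEFs and day 1 held in all 14.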

How the results depend on the processing

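Of 1770 member values under the alternatives, 1613 kept their side of the threshold, 142 lost their call, 15 gained one, and none reversed. The losses were 79 when 1 library was left out, 36 with only the groups compared, 9 after quantile normalization, 7 with the replicate block, 6 without a filter and 5 with a pseudocount of 0.5. The cause was not tested, but leaving out libraries or groups also leaves fewer samples. The following counts are given against those with all groups and libraries. With only the groups compared in the fit, members called were 2 against 4 for MEFs with p38i, 1 against 3 for p38i day 3, 2 against 5 for p38i day 5, 1 against 4 for pre-p38i day 1, 0 against 4 for pre-p38i day 3, 2 against 4 for pre-p38i day 7, 1 against 3 for p38i against pre-p38i on day 1, 1 against 2 for p38i against pre-p38i on day 5, 3 against 5 for p38i against pre-p38i on day 7, 1 against 3 for DMSO day 5 against day 3, 2 against 5 for DMSO day 7 against day 5, 1 against 2 for the change of the p38i difference from day 1 to day 7 and 2 against 4 for the change of the pre-p38i difference from day 1 to day 7. All genes called were 904 against 2365 for MEFs with p38i, 853 against 2128 for p38i day 1, 1044 against 2833 for p38i day 3, 978 against 3514 for p38i day 5, 2749 against 4509 for p38i day 7, 359 against 1539 for pre-p38i day 1, 753 against 2729 for pre-p38i day 3, 1254 against 3387 for pre-p38i day 5, 2285 against 3952 for pre-p38i day 7, 1838 against 3729 for p38i against pre-p38i on day 1, 3700 against 5889 for DMSO day 3 against day 1, 365 against 2569 for DMSO day 5 against day 3, 1396 against 3532 for DMSO day 7 against day 5 and 686 against 1052 for the change from MEFs with p38i to pre-p38i day 1. After quantile normalization, members called were 3 against 5 for p38i day 5 and 1 against 2 for p38i against pre-p38i on day 5. With the replicate number as a block, which does not pair these samples, they were 2 against 4 for pre-p38i day 7. When 1 library was left out, the lone library of its group was assumed to vary like the others. Members called then ranged over 2 to 4 against 4 for MEFs with p38i, 1 to 3 against 3 for p38i day 3, 3 to 4 against 5 for p38i day 5, 2 to 4 against 4 for pre-p38i day 5, 1 to 2 against 2 for p38i against pre-p38i on day 5, 3 to 5 against 5 for p38i against pre-p38i on day 7, 1 to 2 against 2 for the change of the p38i difference from day 1 to day 7 and 2 to 3 against 4 for the change of the pre-p38i difference from day 1 to day 7. All genes called ranged over 1515 to 1676 against 2365 for MEFs with p38i, 1150 to 1643 against 2128 for p38i day 1, 856 to 950 against 1539 for pre-p38i day 1, 1568 to 2050 against 2729 for pre-p38i day 3, 1468 to 2021 against 2569 for DMSO day 5 against day 3, 2136 to 2916 against 3532 for DMSO day 7 against day 5 and 695 to 873 against 1052 for the change from MEFs with p38i to pre-p38i day 1. The unknown depth and the rounding to whole numbers limit what can be read from values near 0, as those of Il6 and Hgf in all groups and of Il11 and Il1rl1 late in induction.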
